A study of Sus scrofa with 6 samples.

Results

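The genes of the interferon response and of antigen presentation were examined in IPEC-1 cells, a non-transformed epithelial line from the small intestine of newborn piglets. Members were 59 listed gene symbols and every gene whose symbol starts with SLA-, the swine leukocyte antigens, which are the MHC genes of the pig. A probe set of the GeneChip Porcine Genome Array carried the symbol of 40 of the 59 listed genes and of 12 SLA genes, so that 52 of the 6765 named genes on the array were measured. Where a gene had several probe sets, the brightest one on average stands for it. The symbols BST2, IFI6, IFI44, IFIH1, DHX58, OAS2, OASL, IFIT5, HERC5, UBA7, TRIM21, TRIM25, CMPK2, PARP14, ADAR, CXCL10, PSMB9, TAP2 and IFNGR2 were on no single-gene probe set and are not analysed here.

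Interferons are secreted proteins that bind receptors on the cell surface and activate Janus kinases. The kinases phosphorylate STAT proteins, which enter the nucleus, in part together with IRF9, and switch on interferon-stimulated genes. Many of the products recognize or degrade viral RNA, and others raise the supply of peptides for MHC class I molecules, which show fragments of cellular proteins to T cells. Epithelial cells can keep a low level of these genes without infection. The roles given here for single genes are those known from human and mouse.

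The study compared air–liquid interface (ALI) cultures, which carried a thin film of medium on the apical side, with submerged cultures (SMC), which stood under a column of medium. Both were grown on membrane inserts and kept in serum-free medium for the last weeks of culture. RNA of 3 ALI and 3 SMC cultures was hybridized, 1 of each type at each of the passages named P109, P111 and P113, so that replicates 1, 2 and 3 stand for 3 passages of 1 cell line and not for animals. No interferon, virus or other immune stimulus is named for either group.

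The deposited values are log2 signals, with array medians between 6.34 and 6.39 and a lower quartile between 4.52 and 4.62. Signals in the lowest 25% of an array are not shown to be above background, since no detection calls were used. ALI was compared with SMC by limma over 23999 probe sets, and calls were made where the Benjamini-Hochberg p stayed under 0.05 over all of them. Precision is limited by the number of arrays. With 3 arrays in each group, 0.1 is the smallest p of an exact permutation test. The epithelial identity was visible in keratin KRT8 at 13.66 ± 0.0805 in ALI and 13.54 ± 0.0907 in SMC cells and in EPCAM at 13.39 ± 0.0465 in ALI and 13.32 ± 0.0269 in SMC cells (log2 signal, SD, n = 3 each), while TJP1 lay at 4.07 in ALI and 4.14 in SMC cells, in the lowest 25%. None of the 9 measured of 10 epithelial markers was called, and 6 had a negative log2 fold change, with a median of -0.10 and VIL1 farthest from 0 at -0.45 (adjusted p = 0.332). Their summed linear signal was 46600 to 47600 in ALI and 44500 to 51000 in SMC arrays. The leukocyte antigen PTPRC lay at 3.49 ± 0.0909 in ALI and 3.57 ± 0.157 in SMC cells. CORO1A, the brightest marker of that list, lay at 8.03 in ALI and 7.94 in SMC cells. Of the 12 measured of 15 markers of blood-derived immune cells, 3 lay in the lowest 25% of all arrays, and none was called. Their summed linear signal was 547 to 590 in ALI and 526 to 542 in SMC arrays. Of 6 endothelial markers, PECAM1 was lower in ALI cells, at 7.14 against 7.64 in SMC cells (log2 fold change -0.50, adjusted p = 0.0448 in limma). CDH5 lay at 3.85 in ALI and 3.83 in SMC cells without a call. The summed signal of the 6 was 240 to 281 in ALI and 301 to 328 in SMC arrays. None of the 7 measured of 10 markers of fibroblasts and smooth muscle was called. Their summed signal was 539 to 596 in ALI and 527 to 728 in SMC arrays, with PDGFRB at 7.55 in ALI and 8.05 in SMC cells. The part of PECAM1-expressing cells in the results was not tested.

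A group of antiviral effector genes was lower in ALI than in SMC cells. Among the 20 measured direct interferon targets, which comprise the RNA sensor DDX58, 16 effectors and 3 genes of the ISG15 and ubiquitin system, 5 were called lower and 0 higher, against 102 lower genes among all 6765 (1.51%) and 69 higher (1.02%). The 5 genes were IFIT3, OAS1, RSAD2, IFI35 and IFIT1, all of them effectors. The methods' t-test, after the same adjustment, called none of these 5 genes (adjusted p from 0.151 to 0.27) and 0 of all probe sets. At an unadjusted p under 0.05, 12 of the 20 were lower and 0 higher, against 8.91% and 7.1% of all genes. The median log2 fold change of the 20 genes was -0.42, and that of all genes 0.01. In RNA of whole cultures, fewer cells with a transcript and less transcript per cell cannot be told apart.

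IFIT3, a partner of IFIT1 in the binding of foreign RNA, had log2 signals of 9.32, 9.60 and 9.41 in ALI replicates 1 to 3, against 10.56, 10.82 and 10.56 in SMC replicates 1 to 3. The groups were separate by a wide margin. Its log2 fold change was -1.21 with a standard error (SE) of 0.12 (adjusted p = 0.00442 in limma), which corresponds to a 2.31-fold higher signal in SMC. With each of the 6 arrays left out in turn it was still called, at an adjusted p between 0.00713 and 0.0326.

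OAS1, an enzyme that makes oligoadenylates on double-stranded RNA and thereby activates RNase L, had 4.26, 4.03 and 4.61 in ALI, against 5.50, 5.62 and 5.40 in SMC arrays. All ALI values lay below all SMC values. The log2 fold change was -1.21 (SE 0.16, adjusted p = 0.0103 in limma). As 2 of the 3 ALI signals were in the lowest 25% of their arrays, this is no exact size. It was not called once ALI replicate 1 (adjusted p = 0.0611) or SMC replicate 2 (0.0645) was left out.

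RSAD2 (viperin), which converts CTP to a nucleotide that terminates viral RNA synthesis, had 8.41, 8.89 and 9.07 in ALI, against 9.63, 10.10 and 9.95 in SMC arrays. The lowest value of each group was that of passage P109, and the groups did not overlap. The log2 fold change was -1.10 (SE 0.19, adjusted p = 0.0304 in limma), a 2.15-fold higher signal in SMC. The call was lost without ALI replicate 1 (adjusted p = 0.089) or 2 (0.0655), and without SMC replicate 2 (0.145) or 3 (0.0755).

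IFI35, an interferon-induced leucine zipper protein, had 8.47, 8.27 and 8.56 in ALI, against 9.01, 9.21 and 9.40 in SMC arrays. IFIT1, which binds RNA that lacks the cap structure of host messengers, had 9.55, 9.36 and 9.61 in ALI, against 10.10, 10.17 and 10.19 in SMC arrays. Neither gene showed an overlap. The log2 fold changes were -0.78 for IFI35 (SE 0.13, adjusted p = 0.0303) and -0.64 for IFIT1 (SE 0.11, adjusted p = 0.0266 in limma). IFI35 was lost without ALI replicate 1 (adjusted p = 0.112) or 2 (0.0841), and without SMC replicate 2 (0.138) or 3 (0.0704). IFIT1 was called only without ALI replicate 3 (adjusted p = 0.0364), and not without any of the others (0.0687 to 0.126).

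**Figure D1:**
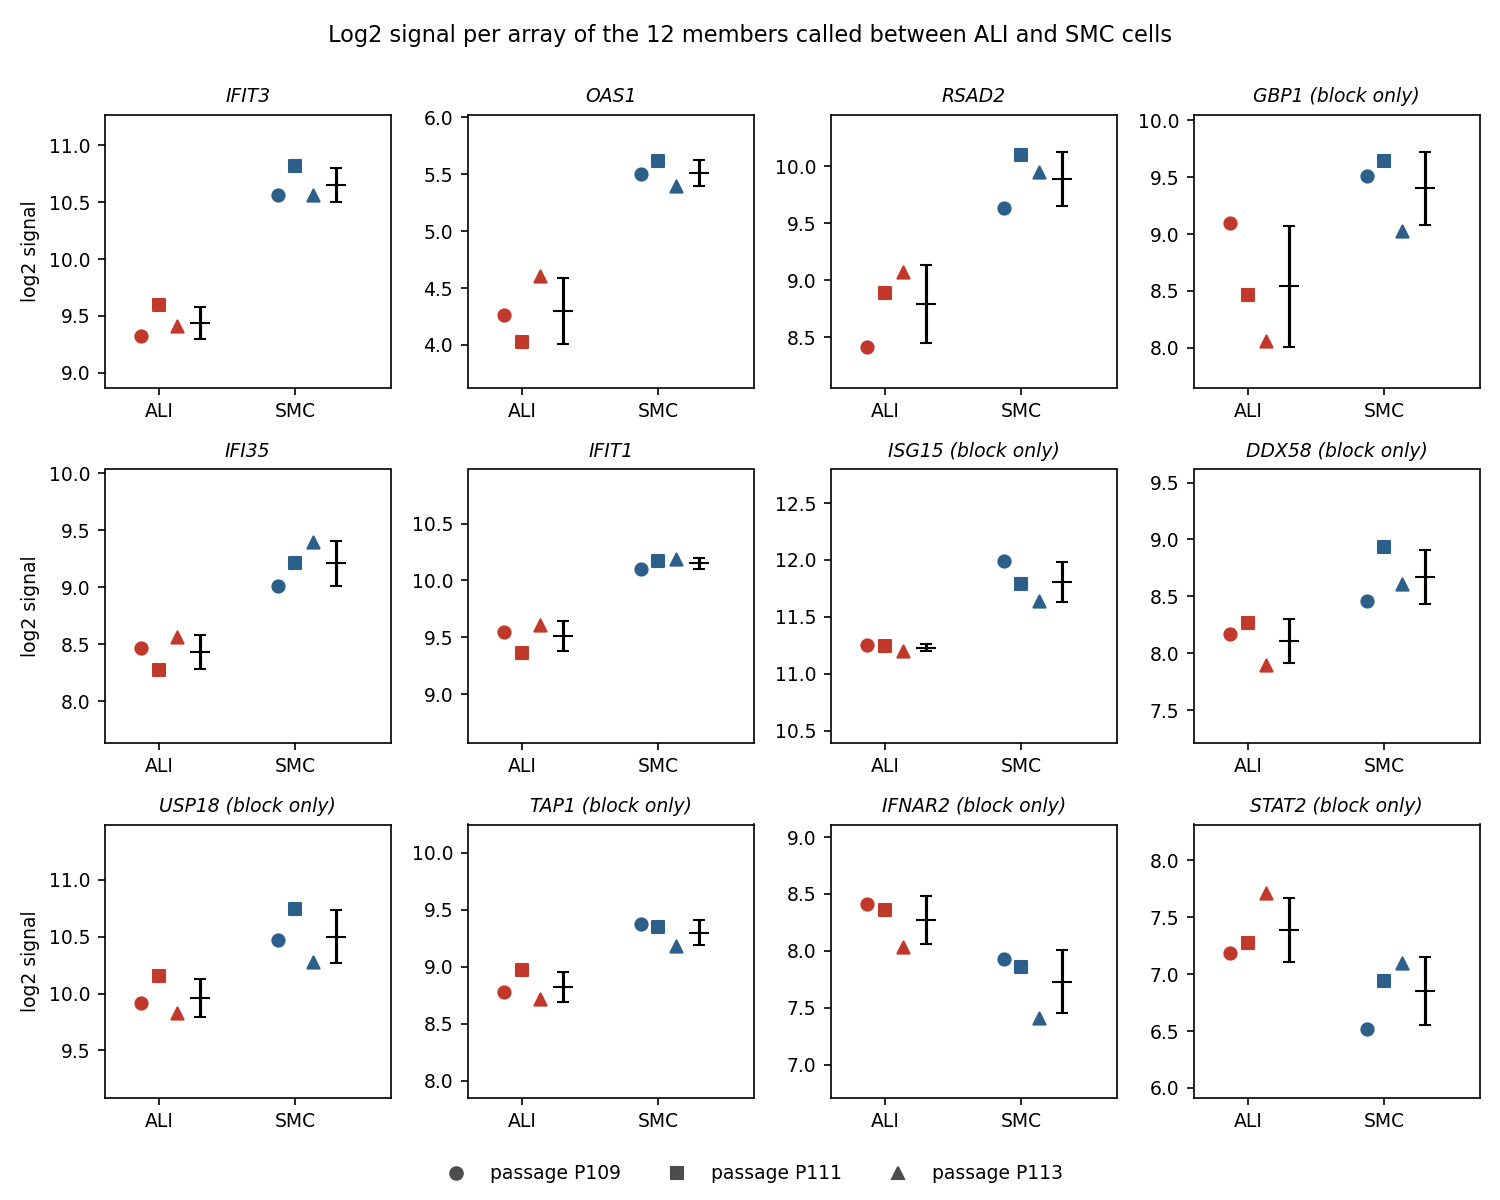
Log2 signal (y axis, a window of equal height in each panel) in 3 ALI and 3 SMC arrays for the 12 genes called with or without the passage as a block, with the marker shape giving the passage and black bars the mean ± SD (n = 3). IFIT3, OAS1, RSAD2, IFI35 and IFIT1 were called in both fits and have ALI values below all SMC values, whereas in GBP1 the ALI array of passage P109 (9.10) lies above the SMC array of passage P113 (9.03), and IFNAR2 and STAT2 run the other way.

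With the passage as a block, 9 of the 20 direct targets were lower in ALI cells and 0 higher, against 3.75% and 2.25% of all genes. The 5 genes above remained and GBP1, ISG15, DDX58 and USP18 were added. GBP1, a guanylate-binding GTPase that acts on intracellular pathogens, had 9.10, 8.46 and 8.06 in ALI, against 9.51, 9.64 and 9.03 in SMC arrays. The groups overlapped by the ALI array of passage P109, while within each passage ALI was lower. Its log2 fold change was -0.86 (SE 0.26, adjusted p = 0.18 in limma, 0.018 with the block).

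ISG15, a ubiquitin-like protein that is conjugated to other proteins, had 11.25, 11.24 and 11.20 in ALI, against 11.99, 11.79 and 11.64 in SMC arrays. USP18, the protease that removes ISG15 and also restrains signaling at the interferon receptor, had 9.92, 10.15 and 9.83 in ALI, against 10.47, 10.74 and 10.28 in SMC arrays. Both were separate between the groups. The log2 fold change was -0.58 for ISG15 (adjusted p = 0.0519 in limma, 0.023 with the block) and -0.53 for USP18 (adjusted p = 0.132, 0.0241 with the block). DDX58, which encodes the viral RNA sensor RIG-I, had 8.17, 8.27 and 7.90 in ALI, against 8.46, 8.93 and 8.61 in SMC arrays. Its groups were also separate, and its log2 fold change was -0.56 (SE 0.15, adjusted p = 0.135, 0.0377 with the block).

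The log2 fold changes of 4 direct targets lay within 0.06 of 0. MX1, a dynamin-like GTPase that blocks viral nucleocapsids, had 11.15, 11.31 and 11.01 in ALI, against 11.08, 11.33 and 10.98 in SMC arrays. Its log2 fold change was 0.03 with a 95% interval from -0.27 to 0.33, which excludes a decrease as large as the estimate for IFIT1. IFI44L had 10.31, 10.37 and 9.96 in ALI, against 10.17, 10.34 and 10.17 in SMC arrays, a log2 fold change of -0.01 (interval -0.32 to 0.29). IFIT2, another protein of the IFIT family, had 8.55, 8.47 and 8.47 in ALI, against 8.55, 8.53 and 8.52 in SMC arrays. Its log2 fold change was -0.04 (interval -0.25 to 0.17). SP110, a nuclear body protein, had 5.76, 5.93 and 5.99 in ALI, against 6.0, 5.96 and 5.91 in SMC arrays, with a log2 fold change of -0.06 (interval -0.30 to 0.18). In these 4 genes the groups overlapped.

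The remaining 7 direct targets were ISG20, GBP2, MX2, PARP9, XAF1, EIF2AK2 and TRIM26, and none was called with or without the block. ISG20, an exonuclease, and PARP9 were separate between the groups, at log2 fold changes of -0.44 (adjusted p = 0.201 in limma) and -0.27 (adjusted p = 0.296). The others overlapped, from GBP2 at -0.39 (adjusted p = 0.302) to the ubiquitin ligase TRIM26 at -0.07 (adjusted p = 0.784), whose signal lay in the lowest 25% of all 6 arrays. EIF2AK2, the kinase PKR that stops translation on double-stranded RNA, had a log2 fold change of -0.09 (interval -0.35 to 0.17). Of all 20 direct targets, 19 had a negative log2 fold change, 10 had ALI values below all SMC values, and 14 were lower in ALI in each of the 3 passages, against 47.9%, 10.9% and 21.0% of all genes.

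Neighbouring members in the pig assembly Sscrofa11.1 had estimates of unequal size. IFIT1 and IFIT3 stand next to each other, with log2 fold changes of -0.64 and -1.21, and IFIT2 on the other side of IFIT3 had -0.04. MX1 and MX2, also adjacent, had 0.03 and -0.32, and the adjacent GBP1 and GBP2 had -0.86 and -0.39. The differences between neighbours were not tested.

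Of the 52 genes, 18 had more than 1 probe set. For IFIT1 the second probe set gave a log2 fold change of -0.71 (adjusted p = 0.0259 in limma), and the dimmest of the 3 gave -0.10 (adjusted p = 0.834). The 3 probe sets of GBP1 gave -0.86, -0.88 and -0.43, and both of DDX58 gave -0.56 and -0.66. The mean over its 3 probe sets left IFIT1 at -0.48 and not called (adjusted p = 0.057). RSAD2 had 1 probe set in the fit and 3 more among the porcine control probe sets of the array, which were left out of it. The control at the 3′ end had 6.18, 6.85 and 7.20 in ALI, against 7.67, 8.06 and 7.96 in SMC arrays, and the one in the middle had 4.95, 5.05 and 5.07 in ALI, against 5.57, 5.99 and 5.89 in SMC arrays. Both were below all SMC values in all ALI arrays, with mean differences of -1.15 and -0.79. The control at the 5′ end had 6.81, 6.87 and 6.66 in ALI, against 6.82, 6.73 and 6.73 in SMC arrays, and it overlapped. The fitted probe set and the controls at the 3′ end and in the middle therefore ran the same way, and the one at the 5′ end did not.

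**Figure D2:**
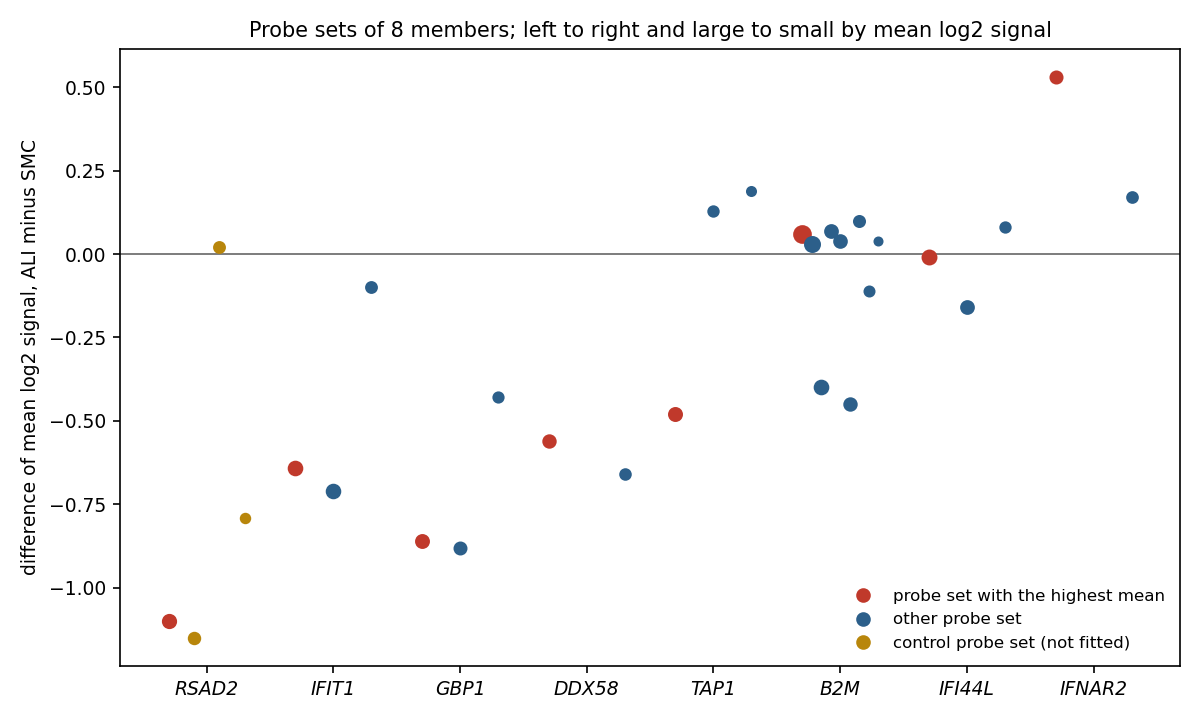
Difference of the mean log2 signal, ALI minus SMC (y axis), for each probe set of 8 members (x axis), ordered and sized within a gene by mean signal, with control probe sets of RSAD2 in ochre. The RSAD2 points lie at -1.10, -1.15, -0.79 and 0.02, the TAP1 points at -0.48, 0.13 and 0.19, and most B2M points close to 0.

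The genes of MHC class I had a median log2 fold change of -0.22, beside -0.27 for the 15 direct targets that were not called. The 5 called effectors lay farther from 0, but they were picked by their call. The 12 measured genes are the immunoproteasome subunits PSMB8 and PSMB10, the proteasome activator subunits PSME1 and PSME2, the peptide transporter TAP1, the loading chaperone TAPBP (tapasin), the light chain B2M and the heavy chains SLA-2, SLA-3, SLA-6, SLA-7 and SLA-8. In limma, 0 of the 12 were called in either direction, against 1.51% lower and 1.02% higher among all genes, and 6 had an unadjusted p under 0.05, all of them lower (8.91% of all genes). With the passage as a block, 1 of the 12, TAP1, was called lower (3.75% of all genes). Log2 fold changes ranged from -0.48 to 0.08.

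PSMB10 had 8.54, 8.41 and 8.64 in ALI, against 9.15, 9.01 and 8.85 in SMC arrays. TAP1 had 8.78, 8.97 and 8.72 in ALI, against 9.38, 9.35 and 9.18 in SMC arrays. TAPBP had 8.54, 8.47 and 8.63 in ALI, against 9.05, 8.98 and 8.76 in SMC arrays. In these 3 genes the groups were separate. PSMB10 had a log2 fold change of -0.48 (SE 0.12, adjusted p = 0.101 in limma), TAP1 also -0.48 (SE 0.11, adjusted p = 0.0883) and TAPBP -0.39 (SE 0.11, adjusted p = 0.159). TAP1 passed with the passage as a block (adjusted p = 0.0401), and PSMB10 and TAPBP did not (0.0655 and 0.116). The other probe sets of TAP1, both dimmer, gave 0.13 and 0.19, so that the lower TAP1 signal rests on 1 of 3 probe sets.

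PSMB8, which stands next to TAP1 in the assembly, was also separate at -0.34 (adjusted p = 0.203 in limma), as was PSME1 at -0.27 (adjusted p = 0.24). PSME2 overlapped at -0.14 (adjusted p = 0.679). The subunits of the constitutive proteasome that PSMB8 and PSMB10 can replace are PSMB5 and PSMB7. PSMB5 was at 0.10 (adjusted p = 0.698) and PSMB7 at -0.02 (adjusted p = 0.972). Of the 7 genes of peptide generation and loading with B2M, 6 were lower in ALI in each passage (21.0% of all genes) and 5 had separate groups with lower ALI values (10.9% of all genes), while B2M ran the other way.

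Of the MHC class I molecule itself, neither chain was called. B2M had 14.14, 14.17 and 14.17 in ALI, against 14.12, 14.10 and 14.09 in SMC arrays. All ALI values were the higher ones by a small step, and the log2 fold change of 0.06 (interval -0.15 to 0.27, adjusted p = 0.823 in limma) was not called. The 9 probe sets of B2M gave between -0.45 and 0.10, none of them called.

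SLA-2, a classical class I heavy chain, had 8.77, 8.92 and 8.64 in ALI, against 8.80, 8.69 and 8.60 in SMC arrays, with a log2 fold change of 0.08 (interval -0.18 to 0.34). The non-classical SLA-8 had 10.30, 10.27 and 10.50 in ALI, against 10.33, 10.55 and 10.45 in SMC arrays, with -0.08 (interval -0.34 to 0.17), and SLA-6 had 5.82, 5.70 and 5.59 in ALI, against 5.77, 5.69 and 5.89 in SMC arrays, with -0.08 (interval -0.33 to 0.17). These 3 genes overlapped between the cultures. SLA-7 had 7.03, 7.25 and 7.04 in ALI, against 7.57, 7.57 and 7.23 in SMC arrays. It was the class I heavy chain farthest from 0, at -0.35 (SE 0.13, adjusted p = 0.269 in limma), and SLA-3 had -0.18 (adjusted p = 0.532). Class I heavy chains are related in sequence, and their probe sets can cross-hybridize, so that a signal is not assured to come from 1 of them.

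**Figure D3:**
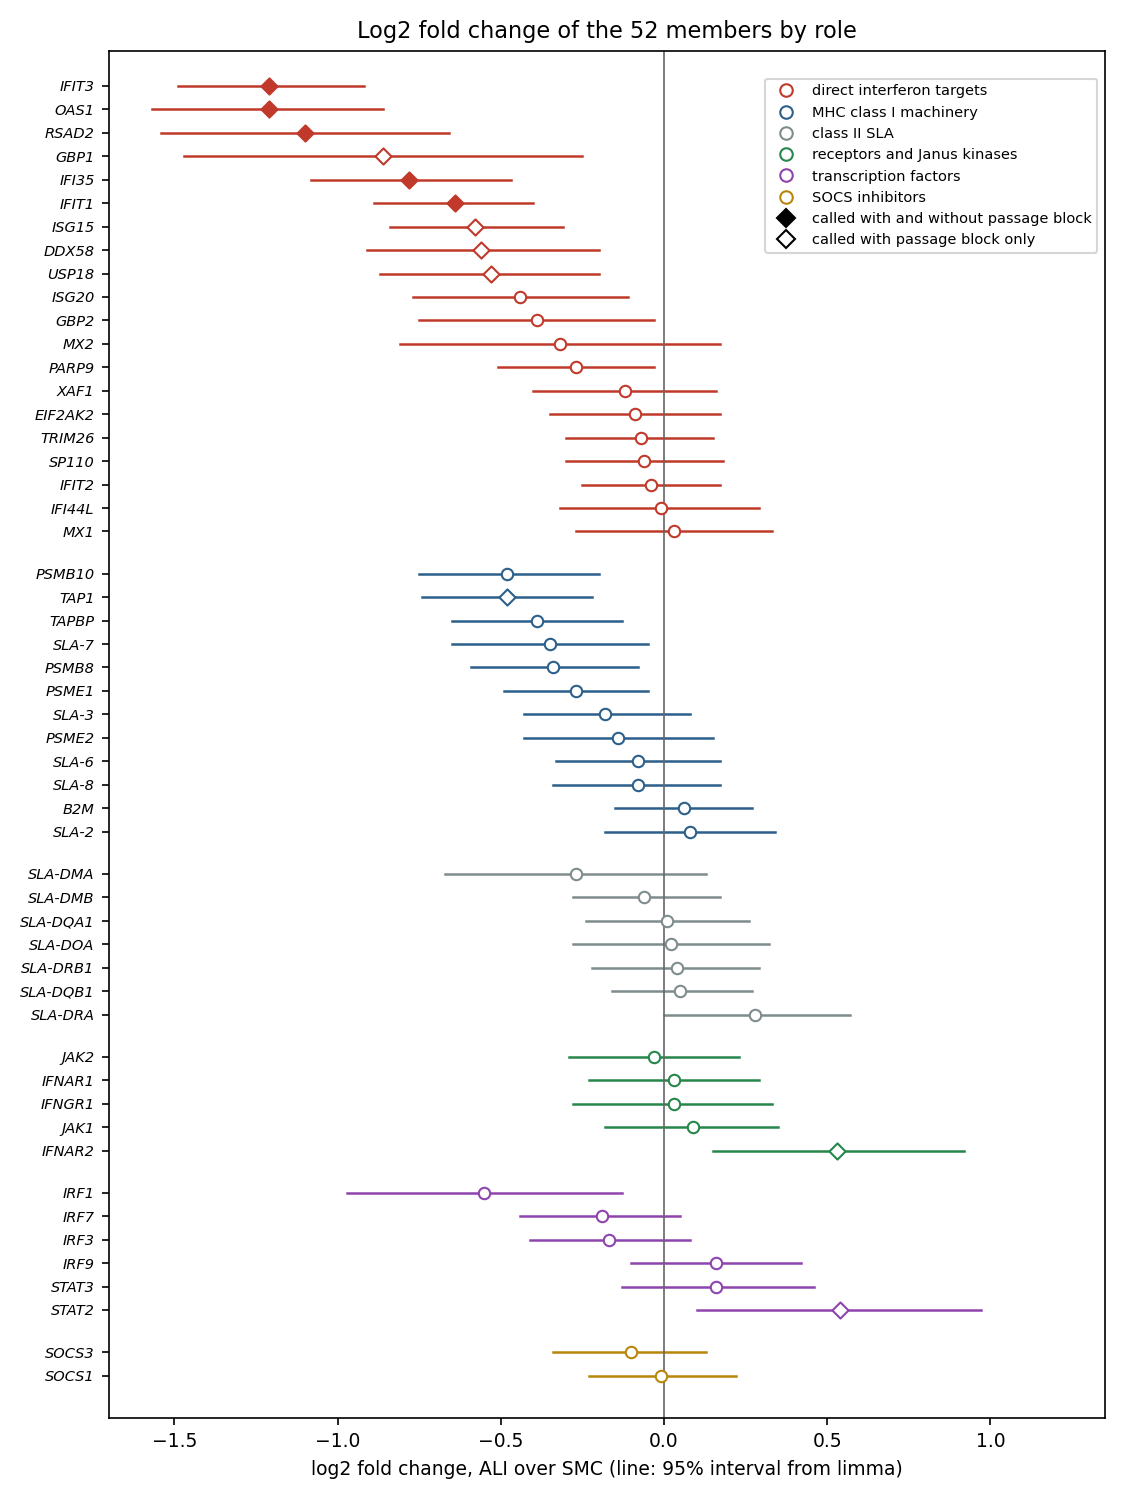
Log2 fold change of ALI over SMC (x axis) for each of the 52 genes, grouped by role, with lines for the 95% interval from limma. Filled diamonds were called with and without the passage as a block, open diamonds with the block only, and circles in neither fit. The 20 direct targets reach from -1.21 to 0.03 and the 12 class I genes from -0.48 to 0.08.

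Class II genes were without a call. The 7 measured genes encode the peptide-presenting chains SLA-DRA, SLA-DRB1, SLA-DQA1 and SLA-DQB1, the peptide-exchange factor chains SLA-DMA and SLA-DMB, and SLA-DOA, a chain of the molecule that modulates that factor. Limma called 0 of them without the block (1.51% lower and 1.02% higher among all genes) and 0 with it (3.75% and 2.25%). For 7 genes, 0 calls are near these shares. None had an unadjusted p under 0.05 (8.91% and 7.1%), and the groups overlapped in all 7 (10.9% and 11.0% of all genes were separate). The median signal was 5.50 in ALI and 5.55 in SMC cells. SLA-DRA, at 5.01 in ALI and 4.72 in SMC cells, lay close to the lower quartile of the arrays. The log2 fold changes were between -0.27 for SLA-DMA (interval -0.67 to 0.13) and 0.28 for SLA-DRA (adjusted p = 0.352), with a median of 0.02. CIITA, the master regulator of class II transcription, and CD74, the invariant chain, lay at -0.08 (adjusted p = 0.804) and 0.02 (adjusted p = 0.958).

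Set side by side, 5 of 20 direct targets and 0 of 12 class I genes were called lower, against 1.51% of all genes. For 12 genes, 0 calls are near that share. At an unadjusted p under 0.05 in limma, 12 of 20 and 6 of 12 were lower, against 8.91% of all genes. The medians were -0.42 and -0.22. Separate groups with lower ALI values occurred in 10 of 20 and in 5 of 12, against 10.9% of all genes. The spread within both classes was larger than the gap between their medians, and the difference between the classes was not tested. Within passages P109, P111 and P113, each with 1 ALI and 1 SMC array and therefore without a test, the median of the direct targets was -0.37, -0.37 and -0.43. The median of the class I genes was -0.32, -0.29 and -0.14, while that of all genes was 0.00, -0.03 and 0.05. ALI was lower than SMC in 16, 17 and 18 of the 20 direct targets and in 10, 9 and 8 of the 12 class I genes at the 3 passages. Of all 6765 genes, 3324, 3727 and 2851 were lower in ALI at these passages.

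The single genes differed in how even their changes were. The ALI minus SMC difference of IFIT3 was -1.24, -1.22 and -1.16 at passages P109, P111 and P113. That of OAS1 was -1.24, -1.60 and -0.79, and that of RSAD2 -1.22, -1.21 and -0.88. Among the class I genes, the difference of PSMB10 was -0.61, -0.60 and -0.21, and that of TAPBP was -0.51, -0.52 and -0.14. A term for a passage trend of the ALI effect, added after these values were seen, was called for 0 of 52 genes and 0 of 23999 probe sets in limma. At an unadjusted p under 0.05 it was found for 1 of the 52, IRF1, and for 2.03% of all genes.

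**Figure D4:**
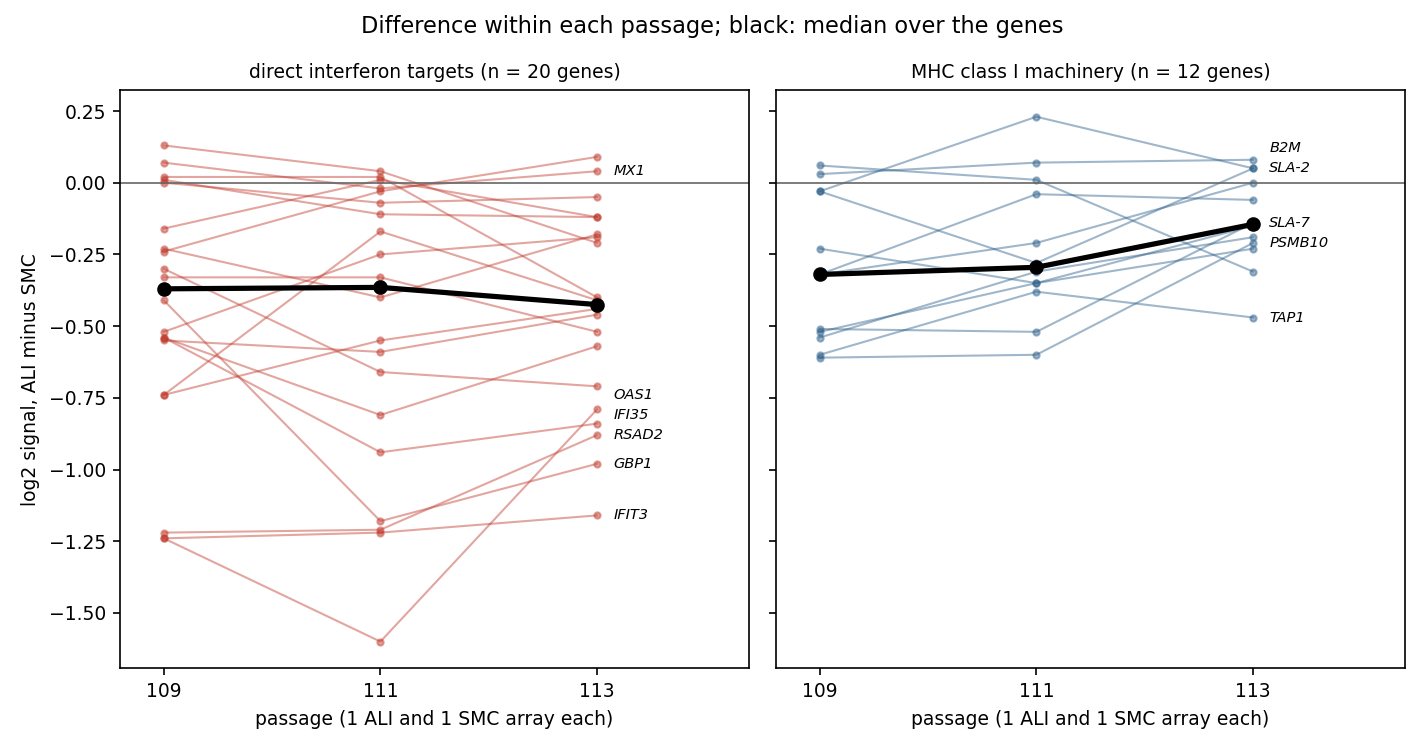
Log2 signal of ALI minus SMC (y axis) at passages P109, P111 and P113 (x axis), with 1 coloured line per gene and the median over genes in black, for direct interferon targets (left, n = 20) and MHC class I machinery (right, n = 12). The black line runs at -0.37, -0.37 and -0.43 on the left and at -0.32, -0.29 and -0.14 on the right.

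No receptor or signaling gene was called lower in either fit, which for so few genes is near the shares of all genes. None of the 5 receptors and Janus kinases, 6 transcription factors and 2 SOCS inhibitors was called in limma without the block. The shares of all genes were 1.51% lower and 1.02% higher. With the block 0 were lower and 2 were higher (3.75% and 2.25% of all genes). IFNAR2, the chain of the type I interferon receptor that docks STAT proteins, had 8.41, 8.36 and 8.03 in ALI, against 7.93, 7.86 and 7.41 in SMC arrays. STAT2, which forms the activating complex with IRF9, had 7.19, 7.27 and 7.71 in ALI, against 6.52, 6.94 and 7.10 in SMC arrays. In both genes every ALI value was above every SMC value, which with B2M makes 3 of the 52 genes, against 11.0% of all genes. Every ALI value was below every SMC value in 19 of the 52, against 10.9% of all genes. The log2 fold changes were 0.53 for IFNAR2 (SE 0.17, adjusted p = 0.184 in limma, 0.0241 with the block) and 0.54 for STAT2 (SE 0.19, adjusted p = 0.241, 0.0351 with the block). A second probe set of IFNAR2 gave 0.17 (adjusted p = 0.744) with overlapping groups.

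The receptor gene IFNAR1, which is separated from IFNAR2 by 1 gene in the assembly, had a log2 fold change of 0.03. The kinases JAK1 and JAK2 had 0.09 and -0.03, and the adjusted p of these 3 genes was between 0.791 and 0.941 in limma. A second, dimmer probe set of JAK2 gave -0.34 (adjusted p = 0.236), with all ALI values below all SMC values. IFNGR1, a chain of the interferon gamma receptor, lay in the lowest 25% of all arrays. IRF1, a factor induced by interferon gamma that was singled out after its values were seen, had 7.35, 7.72 and 7.53 in ALI, against 8.43, 8.09 and 7.73 in SMC arrays. Its groups were separate by a narrow gap, and its log2 fold change of -0.55 (SE 0.18) was not called without or with the block (adjusted p = 0.217 and 0.116). The difference was -1.07 at passage P109, -0.37 at passage P111 and -0.19 at passage P113. The remaining factors IRF3, IRF7, IRF9 and STAT3 had log2 fold changes from -0.19 to 0.16. IRF3 at -0.17 (adjusted p = 0.531 in limma) and IRF7 at -0.19 (adjusted p = 0.456) had all ALI values below all SMC values. A second, dimmer probe set of IRF7 gave -0.06 and overlapped. IRF9 and STAT3, both at 0.16, overlapped. SOCS1 and SOCS3, feedback inhibitors of Janus kinases, had -0.01 and -0.10. The groups of SOCS1 overlapped, and those of SOCS3 were separate by a narrow gap with lower ALI values.

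The passage itself was examined with a slope from P109 to P113 that was shared by both cultures. None of the 52 genes was called, as was none of the 6765 genes (0.0%) in limma, while at an unadjusted p under 0.05 the slope was found for 6 of the 52 and for 13.8% of all genes. Changes over the 4 passages spanned are therefore given as values. GBP1 had a slope of -0.76 log2 units over 4 passages (SE 0.19, adjusted p = 0.18), MX2 -0.65 (SE 0.13, adjusted p = 0.15) and IFNAR2 -0.45 (SE 0.14, adjusted p = 0.251). MX2, a relative of MX1, had 6.59, 6.43 and 6.10 in ALI, against 7.11, 6.68 and 6.30 in SMC arrays, and was the lowest at passage P113 in both cultures. The steepest positive slopes were those of STAT2 at 0.55 (SE 0.13, adjusted p = 0.176), RSAD2 at 0.49 (SE 0.16, adjusted p = 0.279) and GBP2 at 0.38 (SE 0.14, adjusted p = 0.313). GBP2 had 6.06, 6.42 and 6.34 in ALI, against 6.38, 6.75 and 6.86 in SMC arrays. GBP1 and GBP2, which stand side by side in the assembly, thus had slope estimates of opposite sign.

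**Figure D5:**
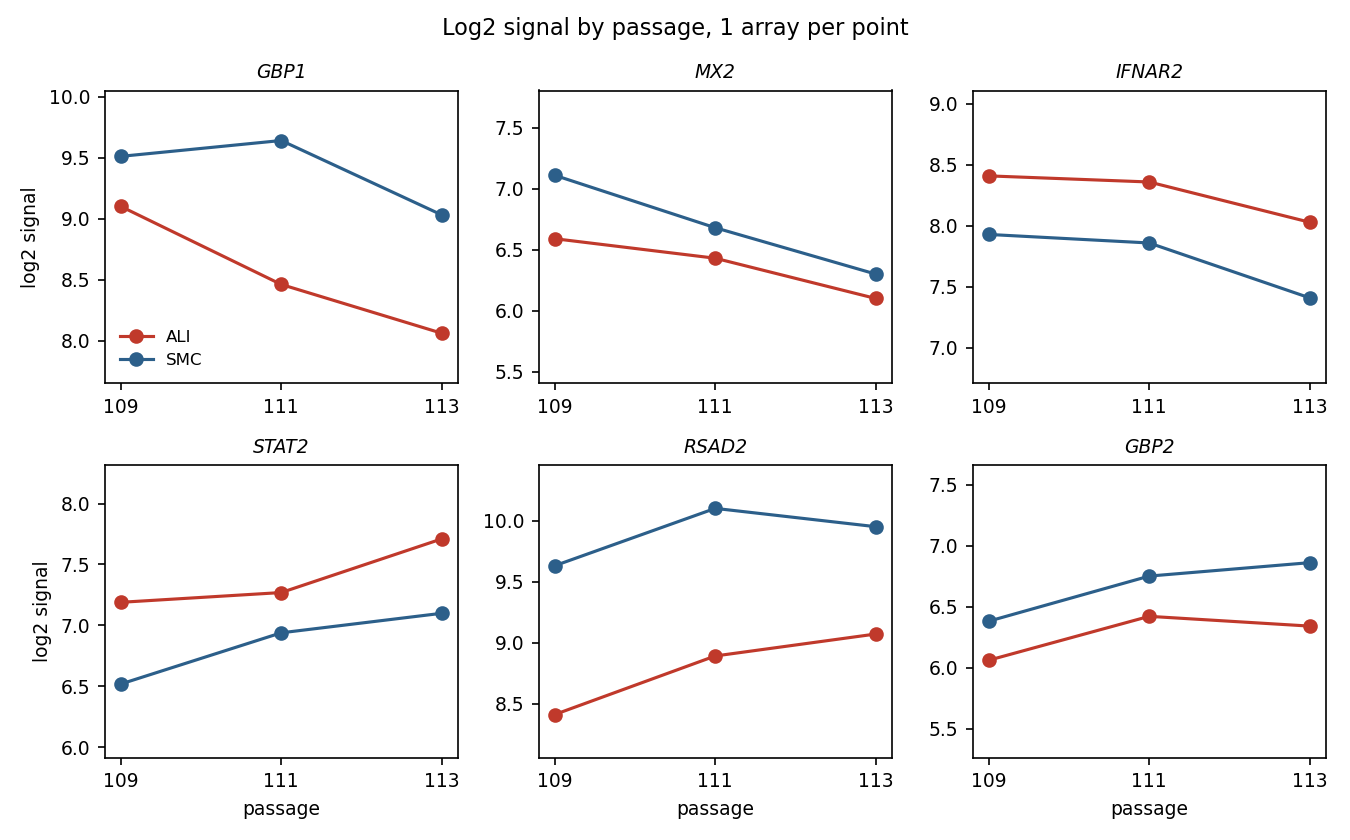
Log2 signal (y axis, a window of equal height in each panel) at passages P109, P111 and P113 (x axis) in ALI and SMC cells, 1 array per point, for the 6 genes with the steepest slopes. GBP1, MX2 and IFNAR2 are lowest at passage P113 in both cultures, and STAT2 is highest there in both.

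Further genes of the pathway were listed from general knowledge, with earlier results of these data known. Their call counts were near the shares of all genes. These shares were 1.51% lower and 1.02% higher without the block, and 3.75% and 2.25% with it. Of 12 measured of 27 listed genes of interferons, their receptors and their induction, limma called 0 without the block and 1 with it, PIAS1, an inhibitor of STAT signaling, at 0.58 (adjusted p = 0.144, 0.0154 with the block). The adaptor MYD88 of Toll-like receptors lay at -0.51 (adjusted p = 0.183). Of the interferon genes, IFNA1 lay at 6.33 in ALI and 6.28 in SMC cells (log2 fold change 0.05, adjusted p = 0.872 in limma). IFNB1 and IFNG lay at 3.28 and 3.65 in ALI and at 3.61 and 3.58 in SMC cells. Both were in the lowest 25%, so that these 2 are not shown to be above background. Of 14 measured of 30 further interferon-stimulated genes, 0 were called without the block and 1 with it, TDRD7, at -0.65 (adjusted p = 0.11, 0.0325 with the block), and TNFSF10, the death ligand TRAIL, lay at 0.40 (adjusted p = 0.695). The median of these 14 genes was 0.05, against -0.42 for the 20 direct targets, and 6 of them had a negative log2 fold change. Of 13 measured of 21 listed genes of antigen presentation outside the members, 0 were called in either fit. The 2 farthest from 0 were the chaperones HSPA5 and PDIA3, both at -0.29 (adjusted p = 0.442 and 0.677).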

How the data were processed

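RNA of 3 ALI and 3 SMC cultures of IPEC-1 was measured on 6 GeneChip Porcine Genome Arrays. The sample labels name the jejunum and, in a free-text field, liver. The authors deposited log2 values for 24123 probe sets. Their methods name arrayQualityMetrics and GC-RMA, and their processing notes list GCOS 1.1.1. No normalization is named in the table, and the values were not scaled again. The fit (lmFit, then eBayes, in limma 3.58.1 under R 4.3.3) held the culture type as its term and covered 23999 probe sets, without 124 controls. Calls required an adjusted p under 0.05 over all probe sets. The passage slope was fitted with the culture type as covariate.

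Symbols came from the platform annotation, 1 symbol for 10069 probe sets and several for 198, which named no gene. Neighbours came from RefSeq. No sequence is shown, since no sequence table was used. The code was tested on simulated data.

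Deviations of ALI and SMC arrays of the same passage correlated at 0.34, 0.14 and 0.451, and the labels give the shared passage. Arrays of different passages correlated between -0.424 and 0.219, and ALI replicate 2 correlated more with SMC replicate 1 (0.219) than with SMC replicate 2 (0.14). The passages thus pair the arrays by their labels. The fit for the calls stayed without this block, and the fit with it was the alternative.

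Members and lists were chosen with earlier results of these data known. Values per array are given for genes called with or without the block, the 4 highest and 4 lowest in both main classes and the 3 steepest slopes in each direction. IRF1, PSMB5, PSMB7, CIITA and CD74 were singled out after their values were seen.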

Additional observations from a re-analysis of the deposited data

How the results depend on the processing

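In limma, 5 of 52 genes were called lower and 0 higher in ALI (1.51% and 1.02% of all genes). With the passage as a replicate block, 10 were lower and 2 higher (3.75% and 2.25%). The methods' t-test gave 14 lower (7.07% among all genes) and 1 higher at an unadjusted p under 0.05 and 0 after Benjamini-Hochberg, as it did for all probe sets. Without single arrays, 1 to 5 genes were lower and 0 higher. The count was 1 without ALI replicate 1 or SMC replicate 2, and 2 without ALI replicate 2 or SMC replicate 3 (1 array fewer in the fit). ISG15 was called with probe sets of a mean above 6 (adjusted p = 0.0492) and with an intensity trend (0.0298). Quantile normalization and a mean above 4 left the same 5 genes, and the mean above 6 left out OAS1. The median log2 fold change without single arrays was -0.52 to -0.38 for direct targets and -0.26 to -0.21 for class I genes. The passage slope called 0 genes in every setting run, and no paired analysis was possible for it because the passage is its term. The promoter motif search was not run. No detection calls limit what dim signals show.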

Other observations

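Probe sets that carry several symbols were part of no comparison. The one shared by SLA-2 and SLA-3 had log2 signals of 8.71, 8.78 and 8.75 in ALI, against 8.76, 8.76 and 8.69 in SMC arrays. Of the 2 shared by SLA-1, SLA-2 and 1 more locus, the brighter had 7.84, 7.71 and 7.70 in ALI, against 7.83, 7.76 and 7.64 in SMC arrays, and the dimmer had 5.54, 5.29 and 5.28 in ALI, against 5.31, 5.03 and 5.06 in SMC arrays. In each of the 3 the groups overlapped.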
